A study of Caenorhabditis elegans with 2 samples.

Results

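Among the peaks that the study's optimal list left out, 2591 lay near the 5′ end of a protein-coding gene and were overlapped by a peak of each replicate. They came from 30000 peaks called on the pooled replicates of a chromatin immunoprecipitation sequencing experiment, of which they are 8.64%. That pooled list is labelled as peaks and background, so its entries need not all be binding sites. The peaks were selected on 3 criteria: no entry with the same coordinates among the 545 optimal peaks, an overlap of at least 1 bp with a peak in the relaxed list of each replicate, and a summit in a promoter window, which reached 1000 bp upstream and 500 bp into the gene from its 5′ end. Of the 29455 pooled peaks outside the optimal list, 6758 were overlapped in both replicates and 8973 lay in promoter windows, and 2591 met both criteria. They are called reproducible weaker promoter peaks here, where reproducible means only that overlap. How often such an overlap arises by chance was not tested. Coordinates are 1-based on the ce11 assembly (WBcel235), and 5′ ends are those of Ensembl.

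The experiment mapped CEH-30 in late embryos of the nematode Caenorhabditis elegans. Strain OP120 carries unc-119(ed3) III and the transgene wgIs120, from which ceh-30 is made as an eGFP fusion, and every library came from this strain. The 2 biological replicates were whole animals, male and female pooled, and form 1 group, so no condition was set against another and signals are averages over all cell types of the embryo. The labels name a control library, which was not analysed here.

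CEH-30 is a homeodomain transcription factor of the BarH family, known for keeping the CEM sensory neurons of males alive. Homeodomains of this family bind short words with a TAAT core. Promoters of genes that every cell uses, such as those for ribosomal proteins, lie in open chromatin in many tissues, and in C. elegans many genes are trans-spliced, so an annotated 5′ end can lie downstream of the true start of transcription.

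The sequence at the summits is shown first for 8 of these peaks, in single-copy sequence without annotated UTR, so that the words counted later can be seen in place. Each is the reference within 50 bp of the summit, on the plus strand, read from the RefSeq copy of WBcel235. The first 3 had the highest pooled signals among peaks that met these conditions, since the window of the strongest peak of all, at B0495.9, overlaps an annotated 5′ UTR, and their capitals mark GACGCA, or the word GCGCCA, or one of the homeodomain words TAATTG, or the word TAATTA, or the word TAAACG, on both strands. The next 2 were chosen by signal among others with GACGCA, then follow 1 with GCGCCA and 2 with one of the 3 homeodomain words, and there capitals mark that word alone.
epc-1, chrIII:12608780-12608880: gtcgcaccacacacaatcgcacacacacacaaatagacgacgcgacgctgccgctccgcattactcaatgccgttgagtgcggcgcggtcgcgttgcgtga
usp-4, chrIV:6756567-6756667: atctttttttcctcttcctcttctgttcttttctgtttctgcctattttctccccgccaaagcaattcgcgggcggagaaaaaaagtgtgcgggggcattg
Y39A1A.22, chrIII:10707192-10707292: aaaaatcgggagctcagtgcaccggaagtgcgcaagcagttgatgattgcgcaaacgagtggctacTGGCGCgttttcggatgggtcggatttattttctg
mdl-1, chrX:6742151-6742251: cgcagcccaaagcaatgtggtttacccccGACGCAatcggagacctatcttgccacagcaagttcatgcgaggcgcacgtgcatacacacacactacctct
lin-40, chrV:3704038-3704138: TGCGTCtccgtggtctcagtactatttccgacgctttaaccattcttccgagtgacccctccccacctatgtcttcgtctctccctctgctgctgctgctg
gob-1, chrX:15492840-15492940: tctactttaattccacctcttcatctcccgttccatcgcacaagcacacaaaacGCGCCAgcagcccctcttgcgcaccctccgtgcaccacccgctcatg
K02C4.3, chrII:8086962-8087062: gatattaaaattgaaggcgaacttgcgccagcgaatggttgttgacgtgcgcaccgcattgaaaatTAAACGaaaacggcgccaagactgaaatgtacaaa
sut-2, chrV:4570393-4570493: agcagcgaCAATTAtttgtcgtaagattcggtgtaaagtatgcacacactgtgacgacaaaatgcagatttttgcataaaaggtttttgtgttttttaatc
The epc-1 window was 60.4% G and C and the sut-2 window 34.7%. The usp-4 and epc-1 windows held none of the 5 words. The mdl-1 window also held CACGTG, the word known for binding by Myc and Mad type proteins.

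These peaks filled the signal range just under the optimal list. Signal is the authors' own value for each peak, treated here as peak height, and what it measures is not given in the sources used. Its scale differs between the pooled and single-replicate lists. Since the optimal list is the top of the pooled ranking, signal had a part in choosing the peaks. Pooled signal ran from 10.1 to 38.9 with a median of 19.4, and the quartiles were 15.6 and 24.95. The strongest of them, at 38.8789 and rank 546, stood just outside the weakest optimal peak at 38.8884. Median pooled signal was 48.3 in the 339 optimal promoter peaks, 13.4 in 5035 weaker promoter peaks that 1 replicate overlapped and 11.5 in 1347 that 0 replicates overlapped. Reproducible weaker peaks elsewhere had medians of 17.7 in introns, 16.99 in exons and 17.996 in distal intergenic sequence.

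The strongest peaks lay upstream of genes of diverse function. The peak of B0495.9 had pooled signal 38.9, with 13.5 in replicate 1 and 26.4 in replicate 2, and its summit lay 48 bp upstream. That of epc-1, which codes for an Enhancer of Polycomb homologue, had 38.8 pooled, 14.9 in replicate 1 and 24.0 in replicate 2, at 244 bp upstream. These 2 peaks ranked 336 and 443 of 17926 in the list of replicate 2 and 2098 and 1452 of 30000 in that of replicate 1, and ranks in lists of unequal length are not on 1 scale. At tre-1, a trehalase gene, and dad-1, which codes for a subunit of the oligosaccharyltransferase, 1 summit lay in both promoter windows, with signals of 38.7 pooled, 19.3 in replicate 1 and 16.7 in replicate 2. At rpl-23, a cytosolic ribosomal protein gene, the values were 38.7, 20.6 and 17.9. At set-4, which codes for a histone H4 lysine methyltransferase, they were 38.6 pooled, 15.97 in replicate 1 and 31.5 in replicate 2. The mdl-1 peak, 150 bp upstream of a Mad-like bHLH gene, was high in replicate 2 alone, where its signal of 33.2 ranked 162. In replicate 1 its signal was 6.42, at rank 23101. The weakest peaks were at W07G1.7 (10.1 pooled, 6.05 in replicate 1, 8.83 in replicate 2) and spsb-1 (10.1, 10.4 and 11.03).

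Most of the peaks were in the top 545 of neither replicate, as are most peaks of either list. Replicate 1 signal ran from 5.62 to 79.8 with a median of 9.51, and replicate 2 signal from 7.77 to 106 with a median of 11.2. In the replicates' own rankings 103 of the peaks were among the top 545 of 30000 in replicate 1. In replicate 2, 95 were among the top 545 of 17926, while 14 were in both top sets and 2407 in neither. The selection left out the 545 strongest pooled peaks, which limits how many could rank high in both. Across the 2591 peaks the replicate signals correlated weakly, with a Spearman coefficient of 0.233, given as a description since the peaks come from the same 2 libraries and each replicate list ends at its own lowest signal. Among the stronger 50% of the peaks by pooled signal it was -0.0805. That part was chosen on pooled signal, which comes from the same reads, so its coefficient cannot show how well the replicates agreed. Across 334 optimal promoter peaks overlapped in both replicates the coefficient was -0.0151.

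The best ranks in both replicates belonged to peaks beside an optimal peak. The soem-1 peak had the best pair, with replicate signals of 79.8 and 106 (ranks 7 and 3), yet its pooled signal was 15.2 at rank 10210. Both replicate peaks also overlapped an optimal peak of signal 188, whose summit lay 199 bp away. The same held for T02E1.2 (pooled 21.5, beside an optimal peak of 107), egg-5 (30.8, beside 59.6), bet-2 (11.6, beside 61.2) and unc-112 (14.5, beside 62.1), with summits 202 to 211 bp apart. Of the 14 peaks in the top 545 of both replicates, 13 took both replicate peaks from an optimal neighbour, and 30 of all 2591 did. A wider count, of peaks with a replicate peak that a stronger pooled peak of any kind also overlapped, gave 297 in either replicate, which leaves 2294 with replicate peaks not so shared. The peaks are thus not independent of one another: 424 overlapped another of the set.

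**Figure D1:**
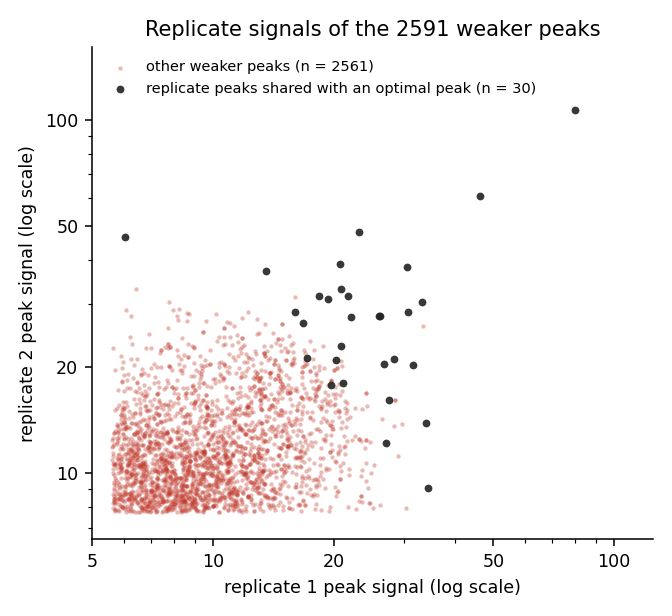
Signal in replicate 1 (x axis, log scale) against replicate 2 (y axis, log scale) for the 2591 reproducible weaker promoter peaks, 1 point each. The 30 black points take both replicate peaks from an optimal neighbour and include the highest pair, 79.8 and 106.

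How often a peak was found in both replicates rose with its pooled signal in every kind of sequence. In promoter windows 173 of 2483 peaks with signal from 10 to 12 were overlapped in both, 6.97% (95% exact interval 5.997% to 8.04%). Exact intervals here and below reflect the number of peaks or genes counted, which share libraries and neighbourhoods, and nothing else. From 16 to 20 the share was 44.9% (42.4% to 47.5%), and from 30 to 40 it was 92.6% (89.3% to 95.1%). Introns ran from 6.502% over 40.8% to 93.7% in the same bins, and distal intergenic sequence from 6.12% over 39.4% to 89.5%. The promoter share was the highest of the 4 in each bin up to 20. From 16 to 20 its interval overlapped that of introns (38.3% to 43.3%). It did not overlap those of distal intergenic sequence (36.5% to 42.3%) and exons (34.0% to 41.6%). From 14 to 16 the promoter interval was 20.7% to 25.2%, apart from that of introns alone (15.8% to 19.7%). From 10 to 12 it was apart from that of exons alone (3.38% to 5.52%), and from 12 to 14 it overlapped all the others. From 20 to 25 distal intergenic sequence stood at 71.6% and promoters at 70.4%, and from 25 to 30 introns stood at 87.1% and promoters at 84.3%, with overlapping intervals. Replicate signals and pooled signal come from the same reads, so the rise is not independent of how signal was measured.

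**Figure D2:**
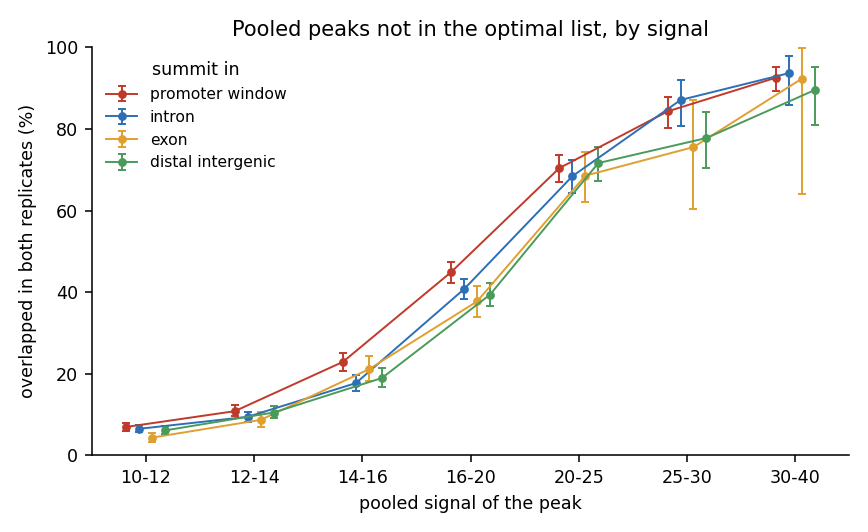
Share of pooled peaks outside the optimal list that were overlapped in both replicates (y axis, %) by pooled signal (x axis, bins) and place of the summit, with 95% exact intervals as bars. All 4 places rise together, promoters from 6.97% to 92.6%.

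Promoter windows made up 26.4% of the nuclear bases. They held 38.3% of the weaker peaks found in both replicates (37.2% to 39.5%), 28.5% of those found in 1, 26.9% of those found in 0 and 62.2% of the optimal peaks. The share also rose with signal. Of weaker peaks found in both, 29.8% were in promoter windows at signals from 10 to 12 and 66.5% from 30 to 40. Of those found in 1 replicate, 26.5% and 63.4% were, the latter of 41 peaks.

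Within the windows, summits gathered just upstream of the 5′ end. The 100 bp bins from 200 to 100 bp and from 100 to 0 bp upstream held 365 and 346 of the 2591 summits, against 85 in the bin farthest upstream. In all 985 summits, 38.0% (36.1% to 39.9%), lay within 300 bp upstream of the nearest 5′ end. This was between the 62.2% of optimal promoter peaks (56.8% to 67.4%) and the 26.6% of weaker peaks found in 1 replicate (25.4% to 27.9%) or the 23.0% of those found in 0. The median distance to the nearest 5′ end was 248 bp, against 215, 322 and 343 bp. At matched signal most of the gap to peaks found in 1 replicate was gone. The gap was narrowest from 20 to 25. There the share within 300 bp upstream was 39.7% of those found in both (35.6% to 43.9%) and 39.5% of those found in 1 (33.2% to 46.1%). The share of those found in both was the higher in each of the 7 bins, and the intervals overlapped in all 7. The widest gap was from 30 to 40, with 62.8% (57.3% to 68.1%) against 38.5% of 26 peaks (20.2% to 59.4%).

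**Figure D3:**
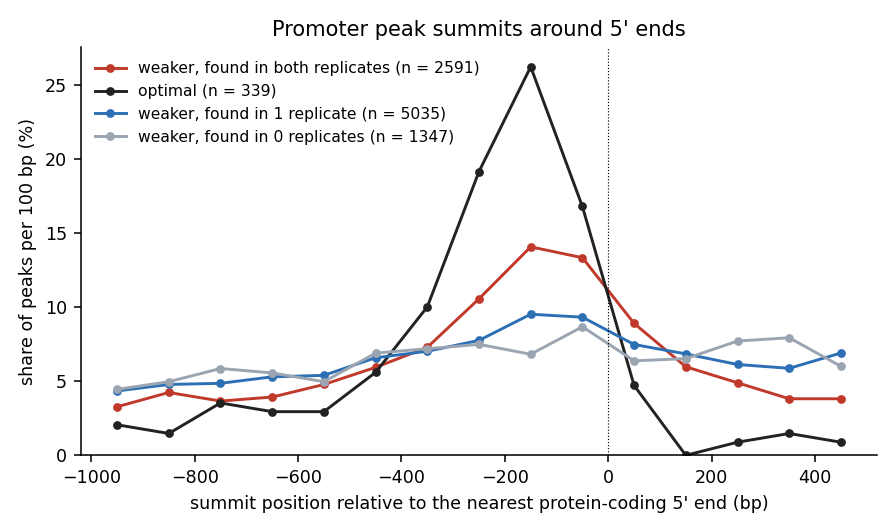
Share of summits per 100 bp (y axis, %) by position relative to the nearest protein-coding 5′ end (x axis, bp, upstream negative) for 4 sets of promoter peaks. The reproducible weaker peaks crest at 14.1% between the optimal peaks at 26.3% and the peaks found in 1 replicate at 9.53%.

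Of the 2591 summits, 62.1% were intergenic, 15.9% intronic, 12.3% in coding exons, 6.37% in 5′ UTRs and 3.24% in 3′ UTRs. The optimal promoter peaks were intergenic more often, at 84.7%, and in coding exons less often, at 1.47%. A summit upstream of genes on both strands, as in a divergent pair, was the case for 397 peaks, 15.3% (13.96% to 16.8%). That compares with 34.8% of optimal promoter peaks (29.7% to 40.1%) and 7.49% of peaks found in 1 replicate (6.78% to 8.25%). By chromosome, III held 487 peaks, 18.8% (17.3% to 20.4%) against 13.2% of the genes, and I held 479, 18.5% (17.01% to 20.04%) against 14.4%. Chromosome V held 479 too, 18.5% against 25.004% of the genes, and X held 344, 13.3% against 13.7%.

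A small RNA gene lay within 200 bp of 66 summits, 2.55% (1.98% to 3.23%): a tRNA gene at 41, a snoRNA gene at 17, a microRNA gene at 5 and an snRNA gene at 3. The share was 8.26% for optimal promoter peaks (5.56% to 11.7%) and 0.894% for weaker ones found in 1 replicate (0.653% to 1.19%). It was higher in distal intergenic sequence, at 4.58% (3.59% to 5.75%). The strongest such peak, at F28H6.7, covered a tRNA gene and had pooled signal 37.4, with 14.5 in replicate 1 and 20.3 in replicate 2, but 40% of its 32-base words were single-copy. Over the 2529 peaks with at least 90% single-copy words the share was 1.58%.

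By gene, 2845 of 19973 protein-coding genes, 14.2%, had such a summit in the promoter window. Assigning each summit to its nearest 5′ end gave 2306 genes, 11.5%. An optimal summit was found for 480 genes, 2.4%, and a weaker summit found in 1 replicate for 5155, 25.8%. The sets of weaker and optimal genes shared 61 genes, 12.7% of the optimal and 2.14% of the weaker. A single reproducible weaker summit was present at 2463 genes, 2 at 370 and 3 at 12, the latter including lact-4, Y97E10C.1, sdn-1 (syndecan) and unc-60 (a cofilin). At each of these 4 genes, 2 of the 3 summits took the same peak in each replicate.

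Read against the background of 14.2%, translation factor and cytosolic ribosomal protein genes had the highest shares among 37 gene lists, 13 of which had an interval above that share and 7 below it. A translation factor gene had one in 19 of 39 cases, 48.7% (32.4% to 65.2%). So did 39 of 81 cytosolic ribosomal protein genes, 48.1% (36.9% to 59.5%), though 20 were the nearest gene of the summit. Another 25 ribosomal protein genes had an optimal summit, 1 of them with both, so that 63 of 81, 77.8%, had one or the other. At rps-5, 359 bp upstream, pooled signal was 37.2, with 18.1 in replicate 1 and 16.5 in replicate 2. For eif-3.G, a subunit of the translation initiation factor eIF3, the values were 35.1, 24.3 and 9.10, high in replicate 1 and low in replicate 2. Mitochondrial ribosomal protein genes reached 26 of 70, 37.1% (25.9% to 49.5%), including mrpl-28 and mrps-17. Aminoacyl-tRNA synthetase genes, which charge tRNAs, had 10 of 32, 31.25% (16.1% to 50.01%).

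Proteasome genes had a summit in 14 of 33 cases, 42.4% (25.5% to 60.8%), and ubiquitin and conjugation genes in 15 of 35, 42.9% (26.3% to 60.6%). Optimal summits lay at 1 proteasome gene, 3.03%, and 3 ubiquitin and conjugation genes, 8.57%, against 2.4% of all genes. The peak at rpt-2, an ATPase subunit of the proteasome, had signals of 38.0 pooled, 7.72 in replicate 1 and 23.2 in replicate 2. That of ubc-12, the conjugating enzyme of the ubiquitin-like protein NEDD8, had 38.6 pooled, 18.9 in replicate 1 and 19.9 in replicate 2. Each of these summits lay nearer to the 5′ end of another gene. That gene was aps-1, at 134 bp against 167 bp for rpt-2, and rbm-3.2, at 31 bp against 330 bp for ubc-12. Respiratory chain and ATP synthase genes had 24 of 75, 32% (21.7% to 43.8%), among them atp-2, the beta subunit of ATP synthase, with 37.8, 21.02 and 20.1. Transcription machinery had 29 of 81, 35.8%, splicing 18 of 52, 34.6%, and chaperones 17 of 52, 32.7%. Weaker summits found in 1 replicate were also frequent there, at 45.7%, 42.3% and 46.2%, against 25.8% of all genes. Optimal summits were at 7.41%, 11.5% and 17.3%, against 2.4%. The 1-replicate share was also above that of all genes for respiratory chain and ATP synthase genes, at 40%, and proteasome genes, at 39.4%. It was 34.3% for mitochondrial ribosomal protein, 28.6% for ubiquitin and conjugation and 28.1% for aminoacyl-tRNA synthetase genes. For translation factor and cytosolic ribosomal protein genes the 1-replicate share was under that of all genes, at 20.5% and 23.5%.

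Genes of the Wnt pathway, which orients cells and divisions in the embryo, had 10 of 26, 38.5% (20.2% to 59.4%), with 0 optimal summits, and in each case the gene was the nearest. Counted by nearest gene alone, this list had the highest share of the 37, ahead of translation factors at 33.3%. They included vang-1, a planar polarity gene (33.5 pooled, 15.3 in replicate 1, 22.03 in replicate 2), mig-5, a Dishevelled gene (31.7, 17.1 and 14.9), and sys-1, a beta-catenin (28.6, 8.93 and 17.7). Summits found in 1 replicate lay at 7 of the 26, 26.9%, near the 25.8% of all genes.

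Several lists of genes with a role in few cells or late stages were at or under the background, and others stood above it. Muscle structure genes were at 19.6% (9.36% to 33.9%) and germline and meiosis genes at 16.1% (7.62% to 28.3%). Basic helix-loop-helix genes were at 15.4% and synaptic genes at 15%, also with intervals that held the background. Homeobox genes, the family of ceh-30, had 12 of 95, 12.6% (6.70% to 21.03%), with 0 optimal summits, and the strongest was at ceh-83 with 37.0 pooled, 21.6 in replicate 1 and 15.8 in replicate 2. Nuclear hormone receptors had 39 of 274, 14.2% (10.3% to 18.9%). Ciliated sensory neuron genes had 5 of 61, 8.20% (2.71% to 18.1%), including dyf-3 and daf-10, and CEM neuron genes 1 of 17, cwp-4, with an interval of 0.149% to 28.7%. The cwp-4 summit lay 760 bp upstream and was nearer to K11D12.12, at 614 bp, so the CEM count by nearest gene was 0. The daf-10 summit lay 963 bp upstream and was nearer to aly-2, at 294 bp. A weaker summit found in 1 replicate lay at 7 of the 17 CEM neuron genes, 41.2%, against 25.8% of all genes. Chemoreceptor genes had 63 of 1311, 4.81% (3.71% to 6.11%), cuticle collagens 10 of 174, 5.75% (2.79% to 10.3%), and cytochrome P450 and UDP-glucuronosyltransferase genes 5 of 141, 3.55% (1.16% to 8.08%). Major sperm protein genes had 0 of 31, which allows up to 11.2%. None of ceh-30, egl-1, the cell death activator, and unc-119 had such a summit. Among cell death genes 7 of 25 had one, 28% (12.1% to 49.4%), including wah-1, the homologue of apoptosis-inducing factor, at 30.9 pooled.

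**Figure D4:**
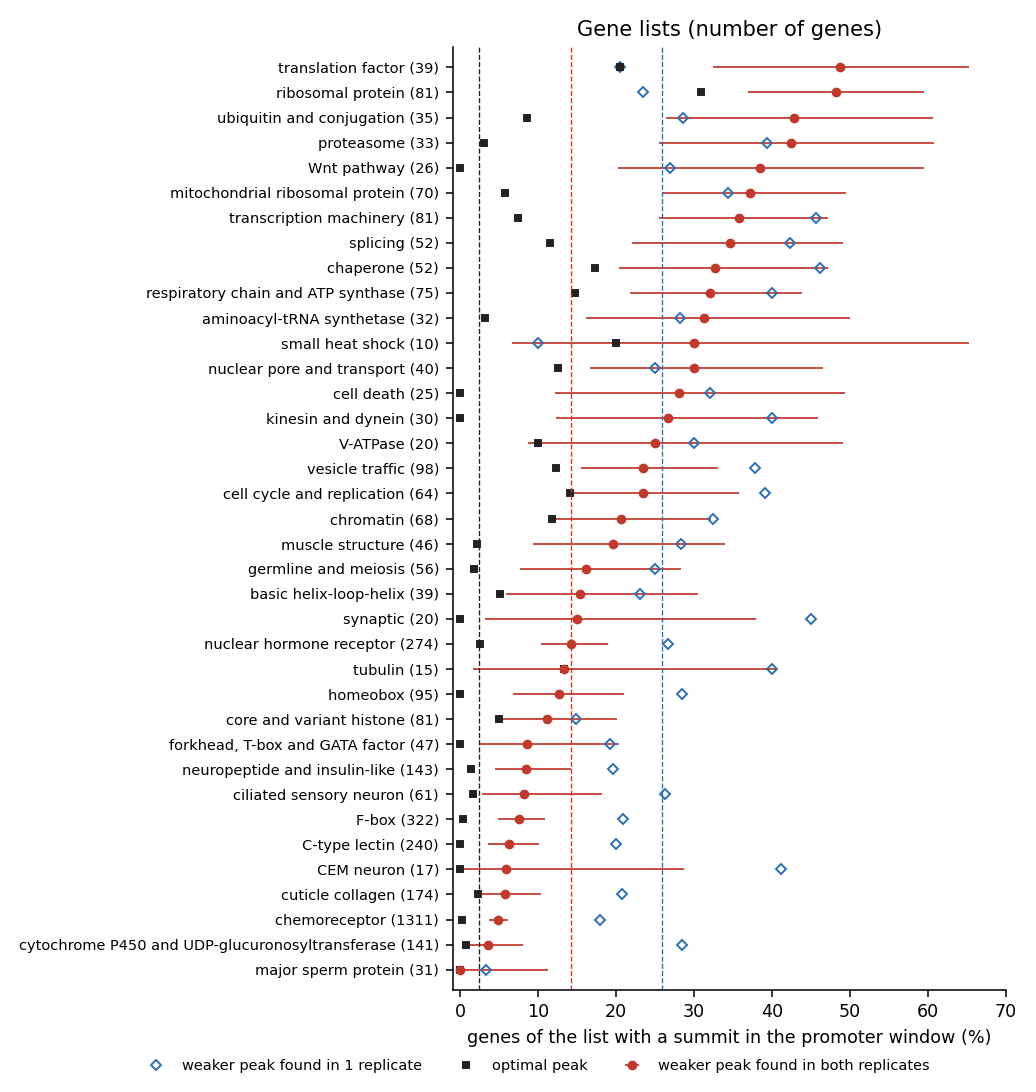
Share of each gene list (number of genes in brackets) with a summit in the promoter window (x axis, %): reproducible weaker peaks (red, 95% exact intervals), weaker peaks found in 1 replicate (blue) and optimal peaks (black), with dashed lines at the shares of all genes, 14.2%, 25.8% and 2.4%. Translation factor and ribosomal protein genes stand at the top with 48.7% and 48.1%, and major sperm protein genes at 0.

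The summits were richer in G and C than their surroundings. Within 50 bp of the summit G and C made up 39.01% of bases (SD 9.38 over 2591 peaks), against 35.4% and 35.5% in equally long windows centred 300 bp away on each side. The summit exceeded its flanks in 1575 of the 2591. The level was 48.2% in optimal promoter peaks and 35.7% in weaker ones found in 1 replicate, against 34.2% in windows centred 150 bp upstream of all 19973 protein-coding 5′ ends. With the peaks divided by signal into 4 equal groups it went from the lowest to the highest group from 36.3% over 37.6% and 39.1% to 43.1%. Reproducible weaker peaks in introns had 36.5%, in distal intergenic sequence 38.4% and in exons 40.4%. The excess over the flanks was 3.54 points for the promoter peaks, 0.363 in introns, 3.84 in distal intergenic sequence and 4.37 in exons.

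Words known for homeodomain binding, taken jointly, were not more frequent at the summits. TAATTG, or the word TAATTA, or the word TAAACG, read on both strands, stood within 50 bp of 345 of the 2591 summits, 13.3% (12.03% to 14.7%), and in 16.2% and 15.4% of the flanking windows. In optimal promoter peaks the share was 8.55% (5.80% to 12.1%), against 18.3% and 18.9% in the flanks, and in windows upstream of all protein-coding genes it was 17.4%. The core TAAT, part of the first 2 words, was in 55.5% of summits and in 63.6% and 65.9% of flanks. Taken singly, TAATTG and TAATTA were less frequent at the summits than in either flank. TAAACG was slightly more frequent, in 3.67% of summits (2.98% to 4.46%) against 3.55% and 3.24% of flanks. The K02C4.3 and sut-2 windows printed above hold such words. That a word is absent from a window says only that these letters are not in it.

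Of all words of 6 bases, each counted jointly with its reverse complement, GAGAGA exceeded the flanks by the most percentage points, 6.18. Elsewhere, reproducible weaker peaks held it in 13.7% of distal intergenic summits (11.99% to 15.5%), 8.56% of intron and 7.52% of exon summits. It was in 12.8% of the promoter summits (11.5% to 14.1%) and in 6.41% and 6.79% of their flanks, and in 8.42% of windows upstream of all genes. ACGCGC was in 7.18% against a flank mean of 1.58%, a larger excess than that of GAGAGA when taken as a ratio. GAGAAA was in 21.7% against 16.5%, AGAGAG in 10.4% against 5.35% and AACGCG in 6.79% against 2.12%. The words GAGAGA and the like overlap one another, so they often mark the same bases. The largest deficits in points were in AAATAT (16.98% against 22.6%), CTGAAA (16.9% against 22.5%) and TAAAAA (28.4% against 33.3%). Of the first 50 words 34 held the dinucleotide CG, as did 604 words in all, and 0 of the last 50 did. The G and C content given above moves with these words, and its part in them was not tested.

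GACGCA, shown in the mdl-1 and lin-40 windows, was in 184 of 2591 summits, 7.10% (6.14% to 8.16%), and in 2.51% and 2.59% of flanks. It was in 19.5% of optimal promoter summits (15.4% to 24.1%), in 4.05% of weaker ones found in 1 replicate (3.52% to 4.63%) and in 3.43% of windows upstream of all genes. The flanks of those windows upstream of all genes held it in 1.93% and 1.98%. Summits within 300 bp upstream held it more often, at 10.2% (8.34% to 12.2%), than those farther upstream, at 5.70% (4.25% to 7.47%), or downstream, at 4.69% (3.28% to 6.46%). In its longer contexts AGACGCAG was found in 90 peaks, GAGACGCA in 82 and GACGCAGA in 74, which overlap. GCGCCA, shown for gob-1, was in 5.17% of summits (4.35% to 6.10%), 1.62% and 1.81% of flanks and 19.8% of optimal promoter summits. In windows upstream of all genes it was in 1.95%, against 1.70% and 1.71% of their flanks. The word TGATAA, known for binding by GATA factors, went the other way, with 7.26% against 9.76% and 9.88%.

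The sequence at the summit changed with pooled signal. From the lowest to the highest of these 4 groups GACGCA went from 3.86% over 4.78% and 6.18% to 13.6% (11.04% to 16.5%), GAGAGA from 9.41% to 18.5% and TGATAA from 10.2% to 3.55%. At matched signal, promoter peaks found in both replicates and in 1 held GACGCA at shares whose intervals overlapped in all 7 bins. From 20 to 25 they were 6.44% (4.55% to 8.80%) and 8.15% (4.98% to 12.4%), and from 30 to 40 they were 15.8% (11.99% to 20.2%) and 15.4% of 26 peaks (4.36% to 34.9%). G and C differed by at most 1.38 points between the sets in any bin, with 39.1% and 39.5% from 20 to 25. The signal bins use the measure that helped choose the peaks, and the 2 sets were called on the same libraries.

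**Figure D5:**
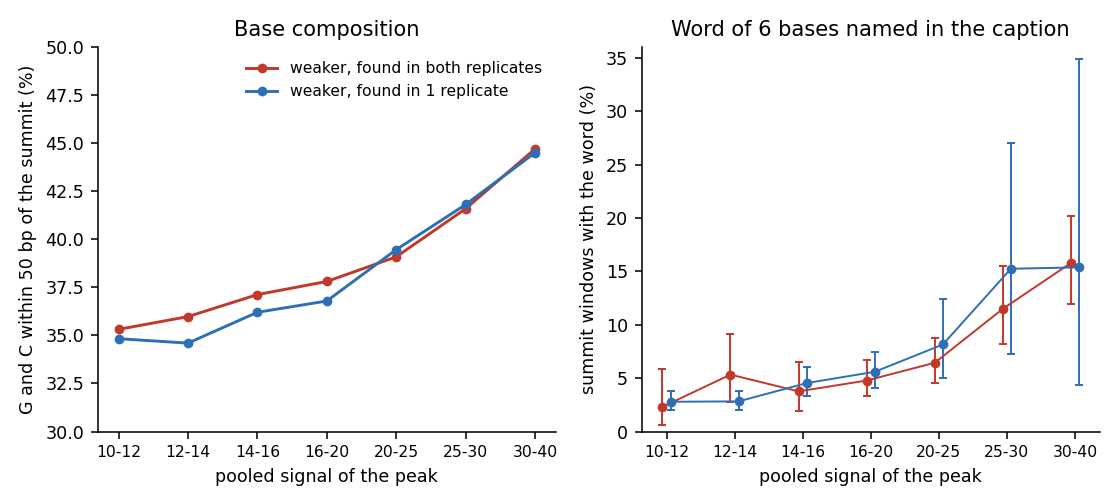
G and C within 50 bp of the summit (left, mean %, axis from 30%) and share of summit windows with GACGCA or its reverse complement (right, %, with 95% exact intervals) by pooled signal, for weaker promoter peaks found in both replicates (red) and in 1 replicate (blue). Both sets rise with signal, to 44.7% and 44.5% G and C in the highest bin.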

How the data were processed

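Per the deposited descriptions, the authors called relaxed lists of peaks for either replicate and for both pooled, with a control, and took the optimal list from these by the irreproducible discovery rate procedure. The pooled relaxed list is labelled as peaks and background, the input of that procedure. Which peak caller, aligner and threshold they used is not given in the sources used here. Each deposited list holds a signal per peak, a significance score and a summit offset. Signal was used within a list only, and the score was not used. No list holds read counts, so depth is unknown. The ce10 lists were not used here.

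Each pooled peak took the strongest replicate peak that it overlapped. Summits were set against Ensembl release 115 and the WBcel235 genome with Python 3.11.15, numpy 2.4.6, pandas 2.3.3, scipy 1.17.1 and matplotlib 3.10.9, by code tested on simulated data. Shares have 95% Clopper-Pearson intervals and nothing was tested, since there is 1 group of 2 replicates. Gene lists were matched by symbol. The peaks and lists were chosen with earlier results of these data known. Named peaks were the 10 of highest signal, the 5 best by their worse replicate rank and the 2 lowest, the strongest within 200 bp of a small RNA gene, up to 3 genes per list by signal, the 5 genes with most peaks, and ceh-30, egl-1 and unc-119. Not all of them are printed. Sequences and words followed similar rules, and 1 sequence so chosen is not reported here. Alternatives changed the promoter window, the overlap, the words' window, the small RNA distance, the 5′ ends and the peaks included. One, added after seeing the data, left out peaks that share a replicate peak with a stronger pooled peak.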

Additional observations from a re-analysis of the deposited data

How the results depend on the processing

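Of 85 values recomputed under 15 settings, 45 stayed within 1.5 times the reported count or within the interval of the reported share. No paired analysis was possible because the 2 replicates form 1 group. Asking for an overlap in 1 named replicate alone gave 4417 to 5800 peaks, 32.2% to 33.4% of weaker peaks in promoter windows, 4595 to 5971 genes, a G and C excess over flanks of 1.60 to 2.79 points, a GACGCA excess of 2.86 to 3.65 points and 1.57% to 1.95% of peaks near small RNA genes. The window from 500 bp upstream to 0 gave 1410 peaks, 20.9%, 1574 genes, and excesses of 3.84 points for G and C and 6.52 for GACGCA. The window from 2000 bp upstream gave 50.2%, and 5′ ends of all transcripts 44.9%. Reciprocal overlap of 50% gave 39.8%, 4.42 and 5.70 points. Replicate summits within 100 bp gave 1395 peaks, 40.8%, 1712 genes, 5.02 and 6.63 points. The stronger 50% of the peaks gave 1641 genes, 5.66 and 7.25 points, 3.63% near small RNA genes and a Spearman coefficient between replicates of -0.0805, of opposite sign to the 0.233 reported. The cause was not tested. Word windows of 25 bp gave 4.08 and 2.57 points, and of 100 bp 2.49 and 6.56, with homeodomain words at -4.25 points. Single-copy peaks gave 1.58% near small RNA genes, and a distance of 500 bp 3.40%. The nearest gene alone gave 20 ribosomal protein genes. Without peaks that share a replicate peak with a stronger one, 2294 peaks remained, and the G and C excess was 4.09 points. The homeodomain difference stayed negative and the GACGCA excess positive in every setting run.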
